A study of Rattus norvegicus with 16 samples.

Results

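The response to sulfur dioxide (SO2) common to 2 rat strains was measured in lung RNA, on all 16 arrays of the series. It was taken as the mean of 2 differences, SO2 minus air in spontaneously hypertensive (SH) rats and SO2 minus air in Sprague Dawley (SD) rats, each between groups of 4 arrays, and genes with the same sign of difference in both strains were followed. SH rats are inbred and develop high blood pressure, and Sprague Dawley rats are an outbred stock. The controls of each strain breathed air, and the labels name no other agent. Each group stands for 1 exposure whose dose, duration and time of sampling, like the age and sex of the rats, were not given in the sources used here. Whole lung was measured rather than sorted cells. The series design calls the 4 arrays of a group biological replicates.

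SO2 dissolves in the fluid that lines the airways and forms sulfite and bisulfite, which irritate the epithelium. Sulfite oxidase turns sulfite into sulfate. Cells answer damaged or misfolded protein with heat shock factor 1, which switches on genes for chaperones such as heat shock protein 70 (Hsp70), while SR proteins, a family of splicing factors rich in serine and arginine, shape how messenger RNA is cut and joined.

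The arrays had close signal levels, and the surfactant gene Sftpc, a marker of alveolar type II cells, measured from 24003.9 to 45111.2 on all 16. Myl7, a myosin gene of atrial heart and pulmonary vein muscle, measured 446.2 to 1386, and the liver genes Alb and Apoa1 lay below the brightness limit of the test. The array labelled SD air replicate 2 went against its strain label. Of the 50 probe sets that differed most between the SH and SD arrays in SO2, it lay closer to the SH level at 33, against 7 to 14 for the other SD air arrays and 36 to 43 for the SH air arrays. Without it limma still called 0 probe sets (smallest adjusted p = 0.0931), and the averaged log2 differences were 0.64 for Srsf5, -0.87 and -0.54 for the probe sets of Dnajb1, 0.78 for Slfn4, 0.95 for Samhd1, -1.11 for Hspa1a and -0.47 for Klf5, all described further on. The 10th percentile of signal, a measure of background, averaged 19.6 ± 1.58 in air and 22.6 ± 4.12 in SO2 for SH rats, and 20.3 ± 2.97 and 21.5 ± 3.49 for SD rats (± standard deviation, n = 4). The ratio of 3' to 5' actin signal, a sign of RNA integrity, averaged 1.78 ± 0.4, 2.14 ± 0.77, 1.53 ± 0.161 and 1.91 ± 0.689 in that order, so the means of both were higher with SO2 in each strain while the arrays' spreads overlapped.

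No gene passed the threshold for the averaged SO2 difference. The genes with the smallest p were led by Srsf5, a splicing factor of the SR family, higher in SO2 in both strains, and by Dnajb1 and Dnaja1, co-chaperones of Hsp70, lower in both. Hspa1a, the inducible Hsp70, had one of the largest differences, about 1.10 lower on the log2 scale. In both strains 16 of 24 heat shock genes measured lower in SO2, beside 24.9% of all genes. With the actin ratio and the 10th percentile as covariates 12 of the 24 did. Limma called 0 of 11106 probe sets (0%) at a Benjamini-Hochberg adjusted p under 0.05, and 0 in each strain alone or for the interaction of strain and exposure. At an unadjusted p under 0.05 there were 939 probe sets (8.45%), where 555 are expected if none differ, 522 of them higher (4.7%) and 417 lower (3.75%). The same count was 537 in SH rats (4.84%), 915 in SD rats (8.24%) and 516 for the interaction (4.65%). Centring each array on its median moved the share of higher values among them from 55.6% to 31.1%, so the balance of directions depends on the scaling. The background level and the actin ratio given above had higher means with SO2, with overlapping arrays, and fits with them as covariates are given beside several groups of genes.

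Agreement between the strains was weak over the whole array. The difference had the same sign in both strains at 6145 probe sets (55.3%), 3462 higher (31.2%) and 2683 lower (24.2%), and across probe sets, which are not independent replicates, the correlation of the 2 differences was 0.105. At an unadjusted p under 0.05 in each strain, 56 probe sets (0.504%) had the same sign and 16 (0.144%) opposite signs. The 56 divided into 28 higher (0.252%) and 28 lower (0.252%), and without the array labelled SD air replicate 2 there were 45 with the same sign and 19 with opposite signs. All 4 SO2 arrays lay beyond all 4 air arrays in the same direction in both strains at 15 probe sets (0.135%), 8 higher (0.072%) and 7 lower (0.063%), and in opposite directions at 6 (0.054%). Within SH rats alone the arrays were apart at 239 probe sets higher (2.15%) and 224 lower (2.02%), and within SD rats at 230 (2.07%) and 163 (1.47%). Of the 15, 12 carried 1 gene name: Srsf5, Plac8, Cep20, Usp40, C4h2orf68 and Ets1 were higher, and Dnajb1, Lhfpl2, Apln, Tmem140, Nbl1 and Vps41 were lower.

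**Figure D1:**
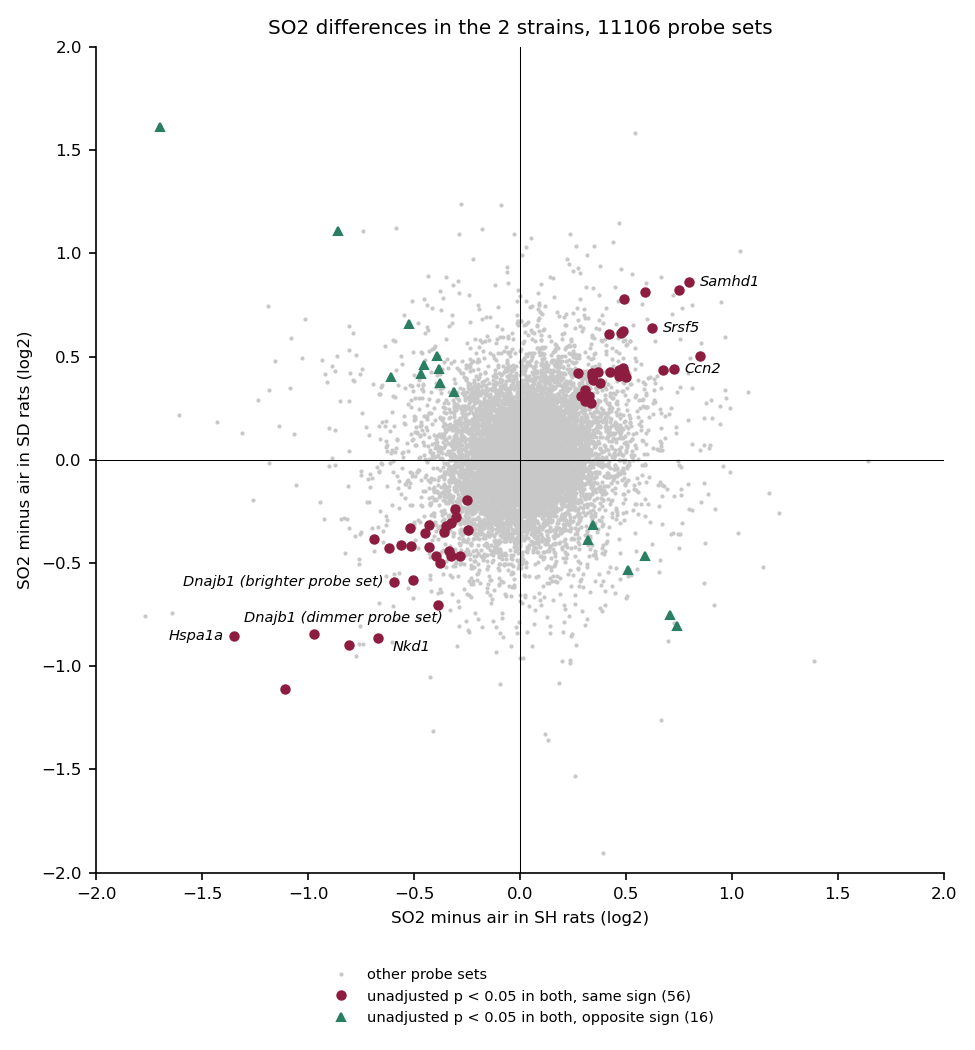
Difference between SO2 and air (log2) in SH rats, horizontally, and in SD rats, vertically, for 11106 probe sets. Dark circles mark the 56 with an unadjusted p under 0.05 in both strains and the same sign, and green triangles the 16 with opposite signs; Samhd1, Srsf5 and Ccn2 lie at the upper right, and Hspa1a, Dnajb1 and Nkd1 at the lower left.

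Heat shock genes were lower in both strains at 16 of 24, and none was higher in both, beside 24.9% and 29.7% over all genes. Hsp70 folds and refolds proteins, and DnaJ proteins such as Dnajb1 and Dnaja1 hand it its clients. Heat shock factor 1 binds repeats of the 5-base unit nGAAn, and facing pairs of the unit read GAANNTTC or TTCNNGAA, letters that are the same on both strands. A search for these letters in the 250 bases before the start of each gene (RefSeq, GRCr8) found them in 4534 of 33469 windows (13.5%). Of the 24 heat shock genes tested, 21 had a window and 11 of these held the letters. Of the 14 windows of genes lower in both strains, 10 did. The list was made of heat shock genes, so a share above that of all windows comes with its choice and says nothing about SO2. Whether the letters go with direction was not tested. The windows of Hspd1 and Hspe1 overlap on opposite strands, so the same 3 matches were counted for both. The windows of 3 such genes are shown, with that of Serpinh1, a collagen chaperone of the endoplasmic reticulum also known as Hsp47, which is outside the list of 24. These genes were among the lower ones in both strains, and each window shown is one that held the letters. Matches are in capitals, in the direction of transcription:

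Dnajb1: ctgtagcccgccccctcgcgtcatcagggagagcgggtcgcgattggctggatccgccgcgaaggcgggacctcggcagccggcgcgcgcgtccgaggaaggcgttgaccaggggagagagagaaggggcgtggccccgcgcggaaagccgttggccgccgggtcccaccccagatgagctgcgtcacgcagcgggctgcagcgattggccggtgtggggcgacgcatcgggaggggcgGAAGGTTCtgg

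Dnaja1: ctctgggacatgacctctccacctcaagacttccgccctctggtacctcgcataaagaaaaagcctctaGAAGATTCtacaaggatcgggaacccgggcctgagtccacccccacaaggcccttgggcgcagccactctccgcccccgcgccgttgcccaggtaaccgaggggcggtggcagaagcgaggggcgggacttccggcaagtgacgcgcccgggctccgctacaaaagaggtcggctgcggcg

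Hspb1: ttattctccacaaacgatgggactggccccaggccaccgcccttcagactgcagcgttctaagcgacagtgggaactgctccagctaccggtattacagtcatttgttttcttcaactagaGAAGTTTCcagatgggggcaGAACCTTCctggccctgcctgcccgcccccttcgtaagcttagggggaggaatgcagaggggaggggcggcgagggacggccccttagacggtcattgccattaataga

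Serpinh1: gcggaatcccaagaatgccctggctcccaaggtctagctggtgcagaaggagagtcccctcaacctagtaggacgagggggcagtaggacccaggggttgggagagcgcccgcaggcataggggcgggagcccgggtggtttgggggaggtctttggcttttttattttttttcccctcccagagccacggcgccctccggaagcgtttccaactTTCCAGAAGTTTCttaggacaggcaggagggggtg

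The window of Dnajb1 is chr19:41431142-41431391 on the minus strand, and its match begins 11 bases before the start. That of Dnaja1 is chr5:60638154-60638403 on the plus strand, with a match 181 bases before the start. That of Hspb1 is chr12:26432302-26432551 on the minus strand, with matches at 129 and 109 bases. That of Serpinh1 is chr1:163062977-163063226 on the minus strand, where the matches at 35 and 30 bases overlap. The windows of Hspa1a and Chordc1, genes that were also lower in both strains, held none of these letters, and bases outside the windows were not searched. That of Srsf5, which is no heat shock gene, held 1 match at 100 bases. A match is only a run of letters, and binding was not measured.

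Dnajb1 was measured by 2 probe sets that both lay lower in SO2. On the dimmer one, the signals in SH air were 607.2, 620.1, 1015.2 and 701.6, and in SH SO2 362.1, 278.8, 379 and 435. In SD air they were 734, 719.1, 591.4 and 418.9, and in SD SO2 413, 197.4, 349 and 401.4. The groups were apart in both strains, in SD rats by a narrow margin between 418.9 and 413. The averaged difference was -0.91 (standard error, SE, 0.16; limma adjusted p = 0.0904), with -0.97 in SH and -0.85 in SD rats. The brighter probe set averaged 1142 ± 233 in air and 742.1 ± 78.7 in SO2 for SH rats, and 978.1 ± 211 and 640.3 ± 125 for SD rats (n = 4), a difference of -0.59 (SE 0.12, adjusted p = 0.166). Its arrays were apart in SH rats and overlapped in SD rats, where SD SO2 replicate 2 reached 827.4 and SD air replicate 4 was 699.2. With the actin ratio and the 10th percentile as covariates the 2 probe sets were at -0.67 and -0.58 (both adjusted p = 0.431). Without SD air replicate 4 both passed, at -0.99 (adjusted p = 0.0221) and -0.67 (adjusted p = 0.0269). For each probe set this was 1 of 2 passes in 31 other settings.

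Dnaja1, which also serves Hsp70, had signals of 2443.1, 2890.7, 3570 and 2570.9 in SH air and of 1726.7, 1609.2, 1537.7 and 1850.3 in SH SO2. In SD air they were 2909.5, 2068.4, 1325.2 and 1710.5, and in SD SO2 1691.7, 1689.8, 1391.9 and 1257.8. The SH groups were apart and the SD groups overlapped, with SD air replicate 3 among the SO2 values. The averaged difference was -0.56 (SE 0.128, adjusted p = 0.231) and on a second probe set -0.52 (SE 0.105, adjusted p = 0.166). Without SD air replicate 4 that second probe set passed, at -0.57 (adjusted p = 0.0337), which was 1 of its 2 passes in 31 other settings.

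Hspa1a varied widely between the air arrays. Its signals were 1292.4, 2605, 6498 and 2367.1 in SH air and 897.8, 1154.6, 715.2 and 1602.6 in SH SO2. In SD air they were 3387.4, 1616.3, 1445.5 and 1042.4, and in SD SO2 1091, 898.3, 934.3 and 817.2. The lowest air array overlapped the SO2 arrays in each strain, and 1 air array in each, SH air replicate 3 and SD air replicate 1, stood well above the rest. The averaged difference was -1.10 (SE 0.263, adjusted p = 0.232), and -0.89 without SH air replicate 3.

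Small heat shock proteins and other co-chaperones lay the same way. Hspb1, a small heat shock protein that holds unfolded proteins, averaged 5414 ± 2358 in air and 3592 ± 313 in SO2 for SH rats, and 4772 ± 1608 and 3069 ± 380 for SD rats (-0.54, SE 0.159, adjusted p = 0.364). Chordc1, a co-chaperone of Hsp90, averaged 797 ± 81 and 470.9 ± 133 in SH rats and 523.7 ± 66.9 and 413.4 ± 121 in SD rats (-0.57, SE 0.144, adjusted p = 0.237). Hspb8, a small heat shock protein, was at -0.32, and Bag3, which links Hsp70 to autophagy, at -0.25. Ahsa1, an activator of Hsp90, was at -0.42, almost all of it from SH rats (-0.71, against -0.13 in SD rats).

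Over the whole list, 16 of 24 genes were lower in both strains and 0 were higher in both, beside 24.9% lower and 29.7% higher over all 8060 genes. At an unadjusted p under 0.05 for the averaged difference 9 were lower and 0 higher, beside 3.9% lower and 4.42% higher over all genes, and 0 passed over all probe sets. The median averaged difference was -0.21, against 0.01 over all genes, with medians of -0.36 in SH and -0.11 in SD rats. The genes that went opposite ways included Hsf2, a heat shock factor (-0.47 in SH, 0.42 in SD rats), and Hsp90ab1, the constitutive Hsp90 (-0.35 and 0.07). The list's summed signal spanned 48570 to 71140 on the air arrays of SH rats and 41380 to 50490 on their SO2 arrays, and in SD rats 41460 to 62080 and 41600 to 45480, so the air arrays had the wider range. With the actin ratio and the 10th percentile as covariates the median was -0.11 and 12 of 24 genes were lower in both strains. Without the array labelled SD air replicate 2 they were -0.22 and 15. With 1 array left out, the number lower in both ran from 12 to 19. It was 12, with 1 higher, without SD air replicate 1 (median -0.14) or SD SO2 replicate 2 (-0.17). It was 19, with 1 higher, without SD air replicate 3 (-0.23). Genes of the unfolded protein response, the counterpart of heat shock proteins in the endoplasmic reticulum, had no common direction, with 7 of 24 higher in both, 7 lower in both and a median of -0.03 (0.06 with the 10th percentile as a covariate).

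**Figure D2:**
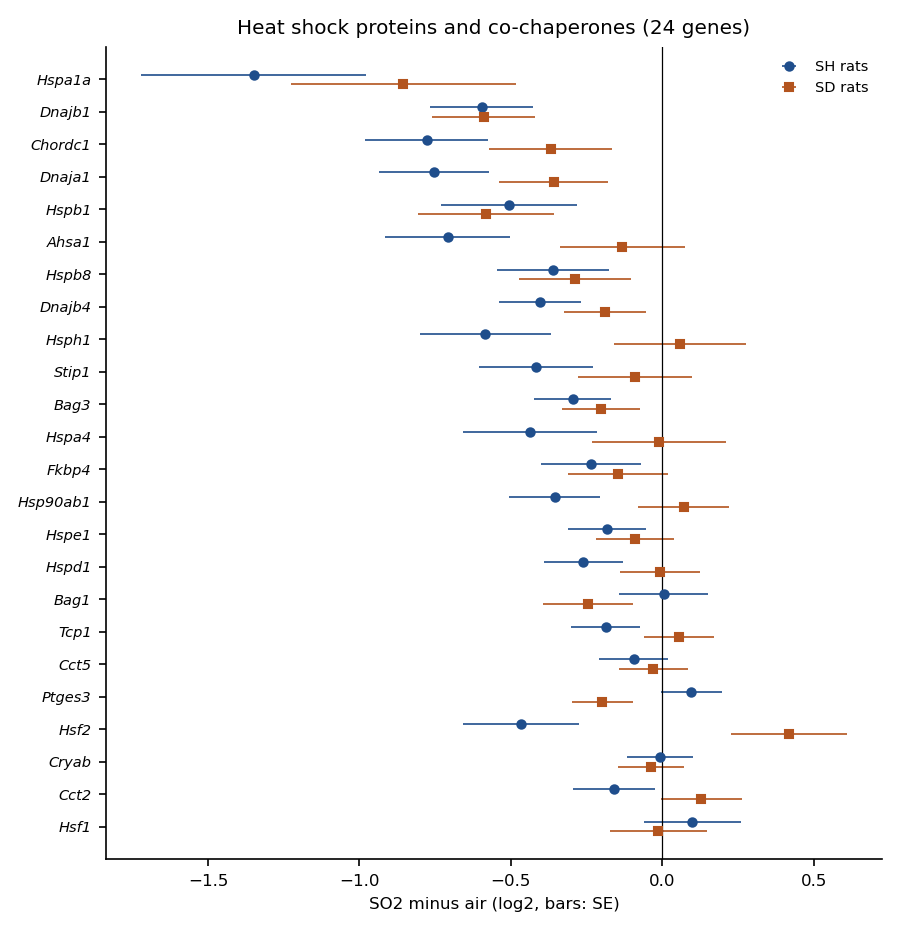
Difference between SO2 and air (log2, horizontal axis; bars are the standard error) for 24 heat shock proteins and co-chaperones in SH rats (circles) and SD rats (squares), ordered by the averaged difference. The 16 genes lower in both strains include Hspa1a, Dnajb1, Chordc1, Dnaja1 and Hspb1 at the top, and Hsf2 lies on opposite sides of 0.

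Srsf5, an SR protein that binds exonic sequences during splicing, had the smallest p of all probe sets. Its signals were 1424.8, 1329.6, 1266 and 1324.5 in SH air and 2305.5, 2286.3, 1601.2 and 2159.7 in SH SO2. In SD air they were 1347.3, 1539.1, 1235.7 and 1878.6, and in SD SO2 1956.3, 2749.1, 2631.2 and 2043. All SO2 arrays lay above all air arrays of their strain. The averaged difference was 0.63 (SE 0.104, adjusted p = 0.075), with nearly the same size in SH (0.62) and SD rats (0.64). It passed in 5 of 31 other settings: an additive model (adjusted p = 0.0443), array weights (0.00738), and without SH SO2 replicate 3 (0.014), SD air replicate 4 (0.0155) or SD SO2 replicate 4 (0.0445). It did not pass in limma with the title number (adjusted p = 0.412), the actin ratio (0.115) or the 10th percentile (0.159) as a covariate. With the actin ratio and the 10th percentile as covariates it was at 0.55 (adjusted p = 0.431).

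Other splicing factors had smaller differences. Of 31 genes in the list, 17 were higher in both strains and 4 lower in both, beside 29.7% and 24.9% over all genes, with a median of 0.13. At an unadjusted p under 0.05, 4 were higher and 0 lower, beside 4.42% and 3.9%, and these were Srsf5, Rbm25, Srsf2 and Meg3. Rbm25, a splicing regulator, was at 0.31 (0.25 in SH, 0.37 in SD rats, adjusted p = 0.416), and Srsf2, another SR protein, at 0.27 (0.14 and 0.40, adjusted p = 0.502). Meg3 is a noncoding RNA and no splicing factor, and it went opposite ways (0.76 in SH, -0.14 in SD rats). Adding the actin ratio as a covariate left a median of 0.05, with 14 higher and 5 lower in both strains, and adding both covariates one of 0.07, as did leaving out SD SO2 replicate 2. Centring each array on its median gave 0.08. Ccnl1, a cyclin that acts with splicing kinases and is not in the list, was at 0.33 (0.19 and 0.48, adjusted p = 0.248).

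**Figure D3:**
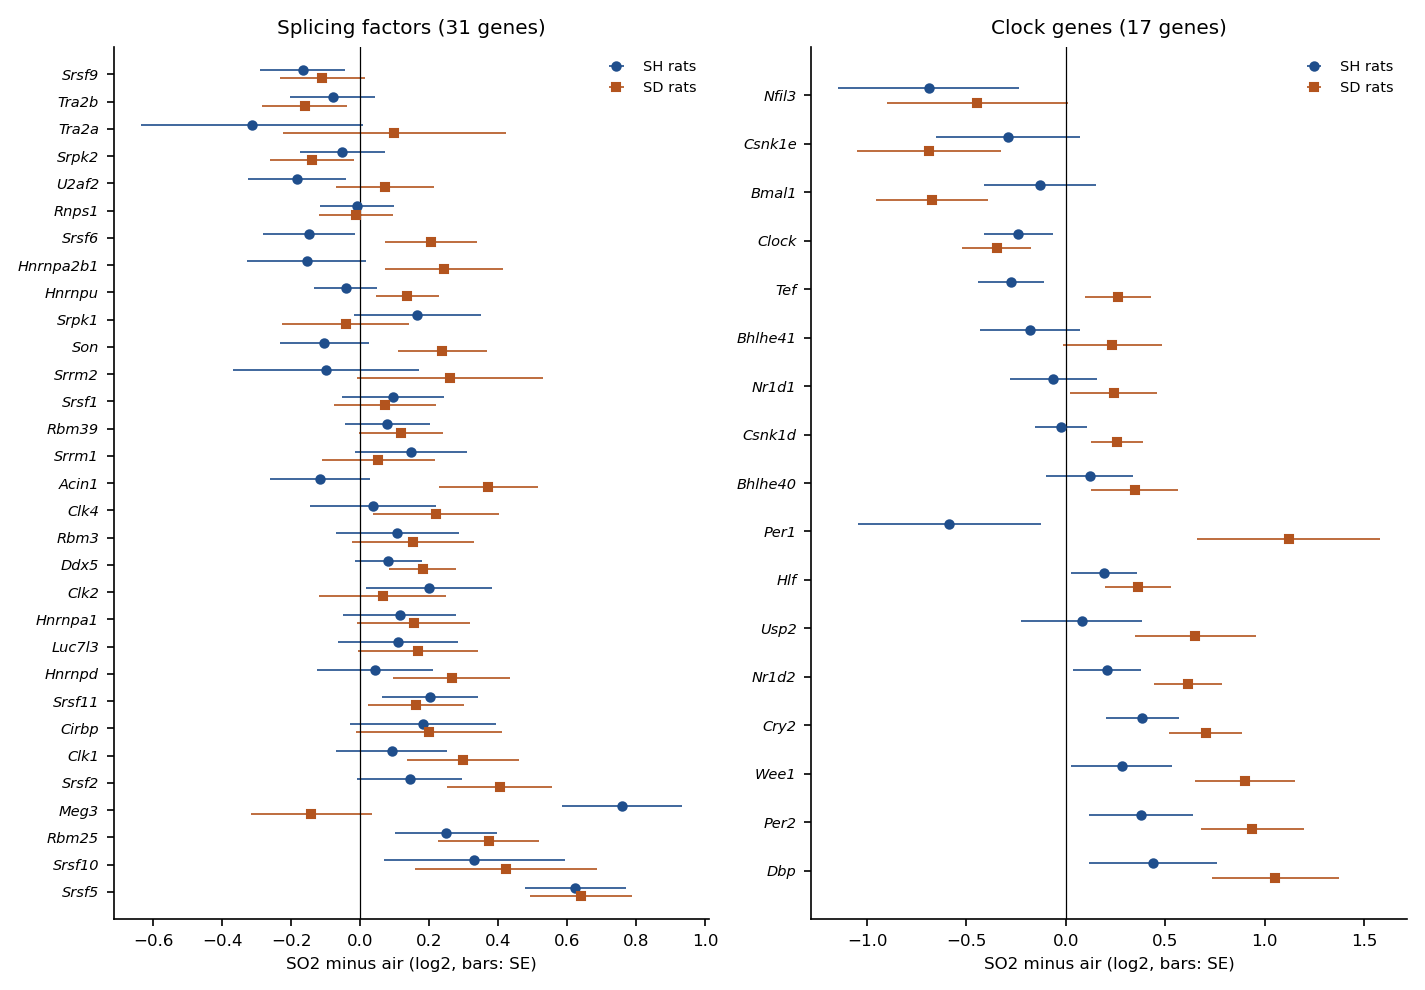
Difference between SO2 and air (log2, horizontal axes; bars are the standard error) in SH rats (circles) and SD rats (squares) for 31 splicing factors, left, and 17 clock genes, right, ordered by the averaged difference. Srsf5 lies near 0.63 in both strains, while Dbp, Per2 and Wee1 are above 0 in both with the larger values in SD rats.

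Some of the other genes with the smallest p that were higher in SO2 are expressed in immune cells, while immune cell marker lists lay in either direction. Slfn4, a Schlafen gene of myeloid cells, measured 933.8, 1014.6, 730.8 and 686.9 in SH air and 1388.4, 999.6, 1386.9 and 1296.2 in SH SO2. In SD rats it measured 404.6, 803, 458.3 and 765.1 in air and 849.4, 1066.1, 1197.3 and 1050.6 in SO2. The SD groups were apart, and in SH rats 1 SO2 array, replicate 2, lay below the highest air array. The averaged difference was 0.70 (SE 0.14, adjusted p = 0.166). Of 31 other settings it passed only without SD air replicate 4 (adjusted p = 0.0337). A dimmer Slfn4 probe set, with group means of 99.6 to 134, was at 0.05.

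Samhd1, an enzyme that breaks down the building blocks of DNA and restricts viruses, averaged 196 ± 34 in air and 351.4 ± 48 in SO2 for SH rats, and 163.8 ± 81.9 and 282.6 ± 55.6 for SD rats (0.83, SE 0.198, adjusted p = 0.232). SD air replicate 1 measured 57.9, and without it the difference was 0.64. The SH arrays were apart, and the SD arrays overlapped at SD air replicate 2. Clec4a3, a lectin receptor of myeloid cells, was at 0.63 (SE 0.158, adjusted p = 0.237), and at 0.51 without SD air replicate 1.

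Plac8, found in plasmacytoid dendritic cells and other leukocytes, measured 2078, 2121.9, 1890.1 and 2178.8 on the SH air arrays, 2309.7, 2712.3, 2765.6 and 3445.9 on those of SH rats in SO2, 2173.1, 2489.5, 2828.8 and 2902.6 in SD air, and 4319.7, 2997.8, 3054.6 and 3662.3 in SD SO2. Its groups were apart in both strains (0.43, SE 0.0957, adjusted p = 0.211). Atp2a3, a calcium pump of blood cells and epithelia, was at 0.32 (0.20 in SH, 0.45 in SD rats, adjusted p = 0.211), and at 0.08 on a dimmer probe set. Prkcb, a protein kinase C of lymphocytes, was at 0.35 (adjusted p = 0.266). In bulk lung, more cells of a type and more RNA per cell cannot be told apart.

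Of 14 markers of T and natural killer cells, 9 were higher in both strains and 0 lower in both, beside 29.7% and 24.9% over all genes, with a median of 0.17. That median was 0.06 with the title number as a covariate and 0.10 with the 10th percentile. Only Lat, a T cell receptor adaptor, had an unadjusted p under 0.05 (0.32, adjusted p = 0.436), and the defining T cell genes Cd3d and Cd3g were at 0.30 and 0.09. The summed signal of the list spanned 5063 to 5846 on air and 4988 to 6102 on SO2 arrays of SH rats, and 4741 to 7267 and 5170 to 8045 in SD rats, so air and SO2 overlapped.

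Macrophage and dendritic cell markers did not lie higher. Over all genes, 29.7% were higher and 24.9% lower in both strains. Of 11 macrophage markers, 1 was higher and 4 were lower in both strains (median -0.06, and 0.01 with both quality covariates), with Fabp5, a fatty acid binding protein, at -0.33 (adjusted p = 0.308) and Gpnmb, a glycoprotein of macrophages, at -0.36 (adjusted p = 0.54). Of 4 dendritic cell markers, 0 were higher and 2 lower in both (median -0.15), among them Batf3, a transcription factor of dendritic cells, at -0.40 (adjusted p = 0.567). Neutrophil markers were higher in both at 1 of 8 and lower at 2, and the genes for the neutrophil proteins S100a8 and S100a9 were at 0.06 and -0.03.

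Interferon response genes were higher in both strains at 15 of 28 and lower at 2, beside 29.7% and 24.9% over all genes, with a median of 0.12. At an unadjusted p under 0.05 in limma, 6 were higher and 2 lower, beside 4.42% and 3.9% over all genes. Mx1, an antiviral GTPase, was at 0.47 in SH and 0.43 in SD rats (adjusted p = 0.406). Oasl, an antiviral protein, was at 0.37, Irf9, a transcription factor of the interferon response, at 0.31, and Usp18, which dampens the response, at 0.30. Irgm2, in the same list, had a smaller p than Mx1 (limma adjusted p = 0.378) but was at -0.03 in SH and 0.58 in SD rats. Tap2, a peptide transporter in the same list, went opposite ways (-1.31 and 0.13). With the title number as a covariate 8 of the 28 were higher in both and the median was 0.07, as it was with arrays centred on their medians, while both quality covariates gave 0.18. Of 8 mast cell, eosinophil and type 2 genes, 6 were higher in both strains and 0 lower, beside 29.7% and 24.9% over all genes. The higher ones included Ccl11, an eosinophil chemokine (0.46, adjusted p = 0.378), and Hdc, which makes histamine (0.34). The median of these 8 was 0.16, and 0.05 with the 10th percentile as a covariate.

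**Figure D4:**
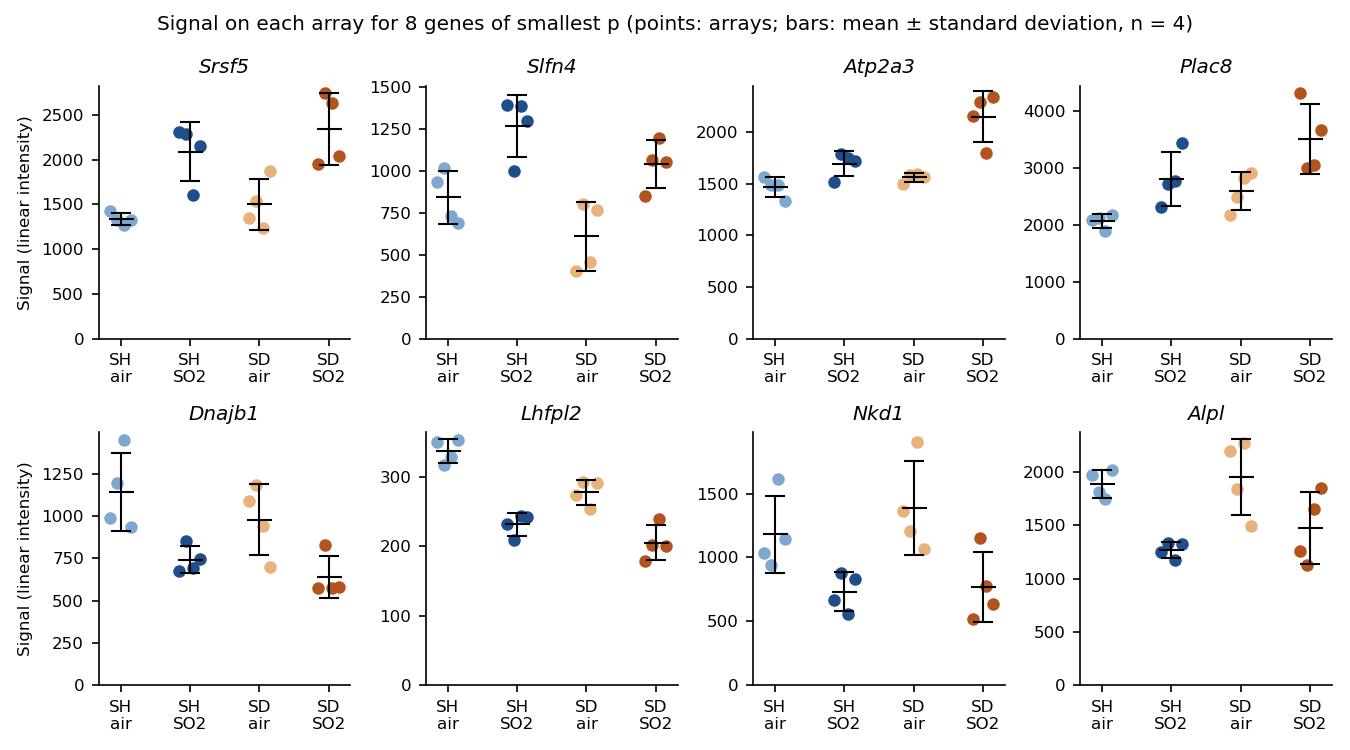
Signal on each array (points, linear intensity from 0; bars show the mean and standard deviation, n = 4) for 4 genes higher in SO2, upper row, and 4 lower, lower row, with the smallest p in each direction. In Srsf5, Plac8 and Lhfpl2 all SO2 arrays lie on one side of all air arrays in both strains, and in Slfn4, Atp2a3, Dnajb1, Nkd1 and Alpl 1 or both strains overlap.

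Genes of growth control and tissue structure were found on both sides. Ccn2, a matricellular protein induced by mechanical strain and by transforming growth factor, measured 4949.4, 4709.3, 4864 and 5872.4 in SH air and 9895.9, 7489.3, 8060.3 and 8419.1 in SH SO2. In SD air it measured 4090.3, 4776.5, 4987 and 3910.2, and in SD SO2 7793.8, 5193.2, 9100.4 and 3524.8. The SH groups were apart, and in SD rats SO2 replicate 4 lay below every air array. The averaged difference was 0.58 (SE 0.142, adjusted p = 0.232). It was 0.48 without SD SO2 replicate 3 and 0.71 without SD SO2 replicate 4. Of 31 other settings only the fit without SD SO2 replicate 4 passed (limma adjusted p = 0.0314). Rictor, a subunit of the mTORC2 kinase complex, was at 0.41 (adjusted p = 0.267), and Cep20, a centrosome protein whose arrays were apart in both strains, at 0.40 (SE 0.0952, adjusted p = 0.232). L3mbtl2, a Polycomb group protein, was at 0.39, the zinc finger gene Zfp422 at 0.34 and LOC100912041 at 0.44, of which 0.22 in SH and 0.65 in SD rats. Smooth muscle and pericyte genes were higher in both strains at 11 of 18 and lower in both at 0, beside 29.7% and 24.9% over all genes. Their median of 0.17 was 0.05 with both quality covariates. Only Mylk, myosin light chain kinase, had an unadjusted p under 0.05 (0.20, adjusted p = 0.559).

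Among the lower genes, Lhfpl2, a membrane protein of the tetraspan type, measured 350.5, 317.1, 327.9 and 353.6 on the SH air arrays, 231.3, 208.2, 244.1 and 242.7 on those of SH rats in SO2, 273.3, 292.5, 254.2 and 291.7 in SD air, and 178.2, 201.3, 238.9 and 200.8 in SD SO2. The groups were apart in both strains (-0.47, SE 0.097, adjusted p = 0.169). Apln, the ligand of the apelin receptor on blood vessels, was apart in both strains on its brighter probe set and in SD rats on its dimmer one. The brighter averaged 1197 ± 87.6 and 981.2 ± 85.7 in SH air and SO2, and 1451 ± 202 and 1045 ± 141 in SD air and SO2 (-0.38, SE 0.088, adjusted p = 0.232), and the dimmer was at -0.37.

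Nkd1, an inhibitor that Wnt signalling itself induces, measured 1035.4, 938, 1618.4 and 1142.4 on the SH air arrays, 668.3, 881.9, 553.1 and 828.7 on those of SH rats in SO2, 1361.9, 1205.8, 1909.1 and 1069.9 in SD air, and 514.3, 1150, 779.6 and 634.2 in SD SO2. The SH groups were apart, and in SD rats SO2 replicate 2 lay within the air values (-0.77, SE 0.16, adjusted p = 0.169). A second Nkd1 probe set was at 0.05, so the 2 probe sets disagreed. Klf5, a transcription factor of the airway and alveolar epithelium, averaged 893 ± 160 and 675.3 ± 92 in SH rats and 916.1 ± 250 and 541.9 ± 46.6 in SD rats (-0.55, SE 0.124, adjusted p = 0.216). Alpl, alkaline phosphatase, which alveolar type II cells make, averaged 1888 ± 131 and 1272 ± 75.5 in SH rats and 1953 ± 360 and 1472 ± 340 in SD rats (-0.49, SE 0.106, adjusted p = 0.203). Of 31 other settings, both passed only without SD air replicate 4, Klf5 at -0.63 (adjusted p = 0.0304) and Alpl at -0.55 (adjusted p = 0.0337).

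Serpinh1, the collagen chaperone named above, averaged 3290 ± 529 and 2595 ± 352 in SH rats and 3642 ± 717 and 2640 ± 109 in SD rats (-0.39, SE 0.0956, adjusted p = 0.232), and its arrays were apart in SD rats. Il11ra1, the interleukin-11 receptor, was at -0.43, and Ptms, parathymosin, at -0.54. Lurap1l was at -0.40, Nbl1, an antagonist of bone morphogenetic proteins, at -0.44, and Tmem140 at -0.35. Htra1, a secreted protease, was named by the averaged p (-0.41, adjusted p = 0.211), yet its difference was -0.09 in SH rats and -0.74 in SD rats, with an interaction adjusted p of 0.959 (unadjusted p = 0.00213 in limma).

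Alveolar type II and endothelial genes lay more often lower than higher, as did alveolar type I genes (5 of 13 lower and 2 higher in both strains), and airway lists did not. The type I medians were 0.05 in SH and -0.09 in SD rats. Type II genes were lower in both strains at 12 of 20 and higher in both at 3, beside 24.9% and 29.7% over all genes. Their averaged median was -0.08 (-0.05 with the 10th percentile as a covariate), with medians of -0.17 in SH and -0.03 in SD rats. Lpcat1, which makes surfactant lipid, was at -0.50 (adjusted p = 0.36). SD air replicate 3 gave it a signal of 9985.4, and the next highest SD air signal was 4874.4. Leaving out SD air replicate 3 brought the Lpcat1 difference to -0.35. Napsa, which processes surfactant protein B, was at -0.23, while the surfactant genes Sftpc and Sftpb themselves were at 0.15 and 0.09. Endothelial genes were lower in both at 8 of 18 and higher at 4, with an averaged median of -0.08 (-0.03 with both quality covariates). By strain the median was 0.03 in SH and -0.15 in SD rats. Plvap, which forms the diaphragms of fenestrae, was at -0.44 (adjusted p = 0.405) and Cldn5, a tight junction protein, at -0.31 (adjusted p = 0.406), against Egfl7, a secreted endothelial factor, at 0.21. No member of either list passed over all probe sets, and 3 and 5 were lower at an unadjusted p under 0.05, with 0 and 1 higher, beside 3.9% lower and 4.42% higher over all genes. Among airway lists, genes of club cells were higher in both at 3 of 11 and lower at 2, of basal and squamous cells at 5 of 11 and 1, of mucous cells at 3 of 7 and 2, and of ciliated cells at 2 of 5 and 2.

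Several repressors and output genes of the circadian clock measured higher in SO2, mainly in SD rats: the median of 17 clock genes was -0.02 in SH and 0.35 in SD rats, and 5 of them went opposite ways. Cry2, a repressor of the clock, measured 416.1, 390.5, 579.5 and 386.5 on the SH air arrays, 562.3, 561, 714.8 and 486.8 on those of SH rats in SO2, 288.9, 265.5, 350.8 and 406.3 in SD air, and 374.7, 637.9, 539.6 and 641.9 in SD SO2. The groups overlapped by 1 air array in SH rats and 1 SO2 array in SD rats (0.54, SE 0.131, adjusted p = 0.232). Per2, its partner, was at 0.66 (0.38 in SH, 0.94 in SD rats, adjusted p = 0.315) and Dbp, a clock output factor, at 0.75 (0.44 and 1.05, adjusted p = 0.37). Bmal1, an activator of the clock, was at -0.40 (-0.13 and -0.67, adjusted p = 0.6), and its partner Clock at -0.29 (-0.24 and -0.35). Nr1d2, a repressor of Bmal1, was at 0.41 (0.21 and 0.61), and its second probe set was at -0.01 in SH and 0.65 in SD rats. Of 17 genes, 8 were higher and 4 lower in both strains, beside 29.7% and 24.9% over all genes, so the share of lower ones was near that of all genes. At an unadjusted p under 0.05, 6 were higher and 1 lower, beside 4.42% and 3.9%. The averaged median was 0.23, and 0.15 with both quality covariates or without SD air replicate 3, and 0.14 without SD SO2 replicate 1. None had an interaction adjusted p under 0.05, and without SD air replicate 1 Dbp was at 0.51 and Per2 at 0.53. The hour of sampling was not stated, and its part in these values was not tested.

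No gene for handling sulfite or oxidants passed the threshold. Suox, sulfite oxidase, averaged 414.3 ± 20.8 in air and 362.7 ± 9.32 in SO2 for SH rats, and 332.7 ± 57 and 302.1 ± 82.3 for SD rats (-0.17, SE 0.124, adjusted p = 0.715), with the arrays apart in SH rats. Of 22 genes of sulfite and sulfur amino acid metabolism, 5 were higher in both strains (22.7%) and 5 lower (22.7%), beside 29.7% and 24.9% over all genes. Cdo1, cysteine dioxygenase, was at 0.41 (0.66 in SH, 0.15 in SD rats) and Mpst, a sulfur transferase, at -0.32. Among 29 targets of Nrf2, the transcription factor of the antioxidant response, 11 were higher in both (37.9%) and 5 lower (17.2%). The shares over all genes were 29.7% and 24.9%, and the list's median was 0.02. Nqo1, a quinone reductase and standard Nrf2 target, was at 0.15 (adjusted p = 0.699), Gclc, which makes glutathione, at -0.02 and Hmox1, heme oxygenase, at -0.08, with -0.52 in SH and 0.36 in SD rats. Of 18 enzymes that remove superoxide and peroxide, and related genes, 9 were lower in both strains and 2 higher, beside 24.9% and 29.7% over all genes, with a median of -0.05, and -0.01 after the actin ratio was added to the fit. In that list Sod1, a superoxide dismutase, was at -0.19, and Mt2A, a metallothionein, was at 0.34 (0.63 in SH, 0.06 in SD rats, adjusted p = 0.501).

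Some inflammatory genes went opposite ways in the 2 strains and others the same way. Il1b, interleukin-1 beta, was at 0.80 in SH and -0.24 in SD rats (averaged adjusted p = 0.575), and the neutrophil chemokine Cxcl2 at 0.99 and -0.06 (0.517). Cxcl1, a chemokine of the same family, was at 0.24 and -0.85 (0.676). The macrophage chemokines Ccl3 (0.46 and 0.22, adjusted p = 0.447) and Ccl4 (0.56 and 0.29, adjusted p = 0.406) were higher in both. The receptor gene Egfr was at -0.02 in each strain, Scgb1a1, the club cell secretory protein, at 0.12 and 0.08, and Cd36, a fatty acid transporter, at -0.87 and 0.15. Muc5b, Il6 and Tnf were not tested, being too dim or without a probe set of 1 gene name. In the NF-kappaB list 8 of 13 genes were lower in both strains and 3 higher, beside 24.9% and 29.7% over all genes. The median was -0.06 (0.01 with both quality covariates), and the inhibitor gene Nfkbib had the smallest p (-0.32, adjusted p = 0.406).

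**Figure D5:**
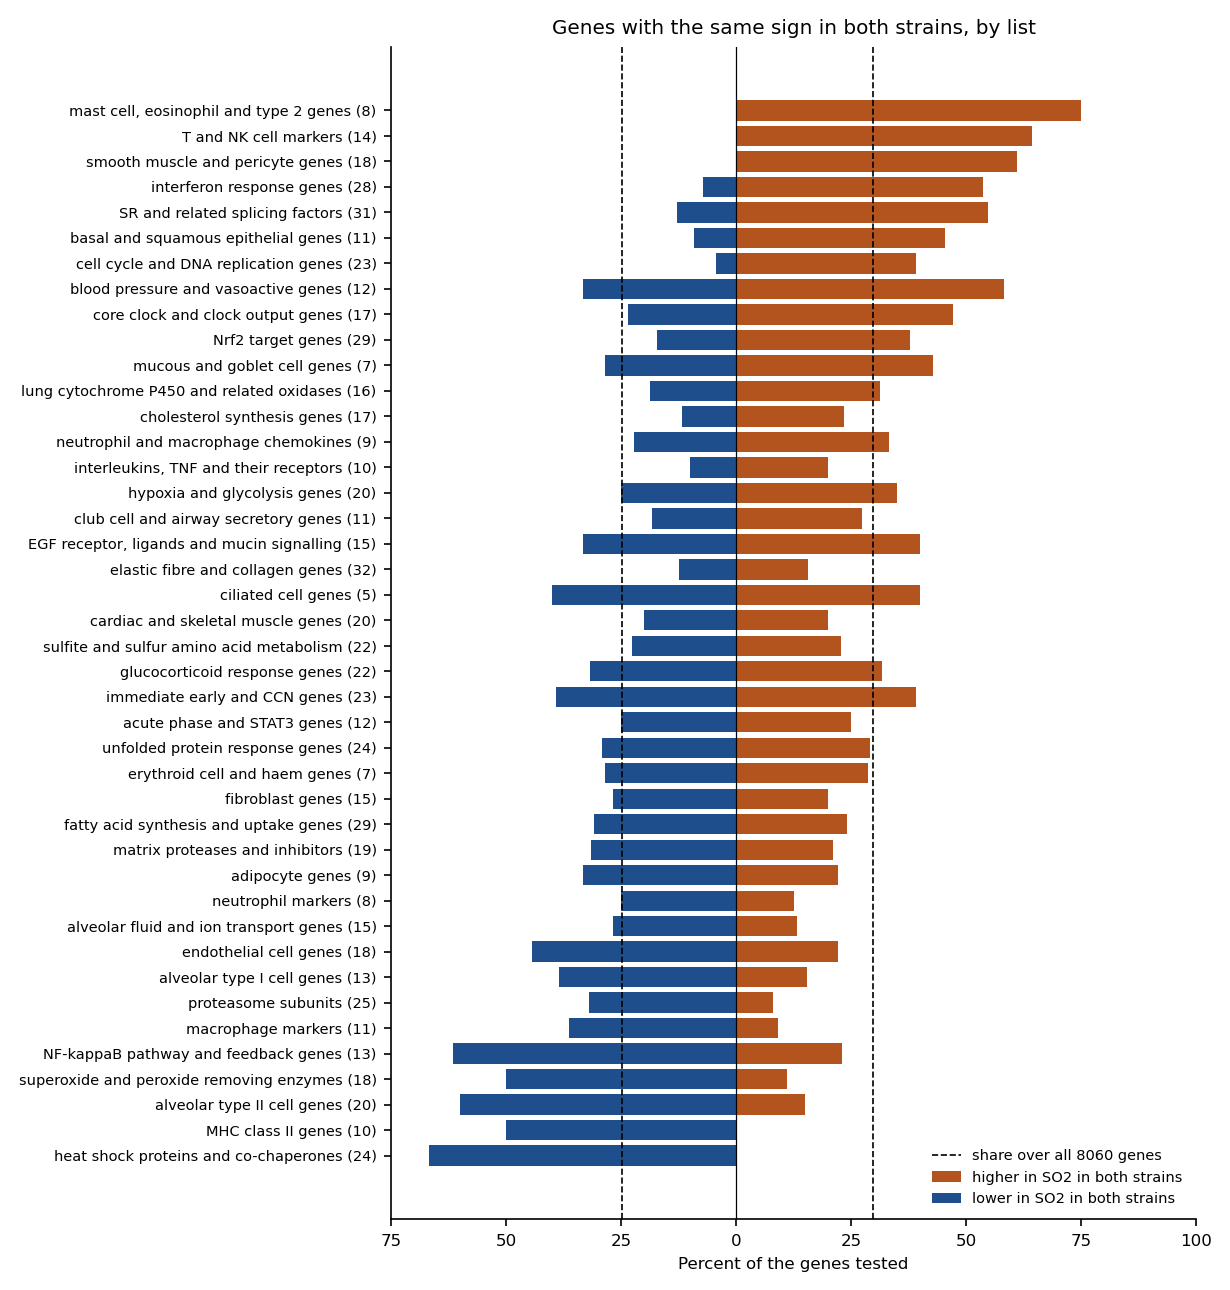
Percent of the genes tested in each of 42 lists that were higher (right) or lower (left) in SO2 in both strains, with the number tested in brackets; dashed lines mark 29.7% and 24.9%, the shares over all 8060 genes. Heat shock genes lie at the bottom with 66.7% lower and 0% higher, and mast cell, eosinophil and type 2 genes at the top with 75% of 8 genes higher.

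Title number moved with exposure in SH rats only, and the quality means were higher with SO2 in each strain while the arrays overlapped. In SD rats the title numbers in SO2, 47 to 50, lay within the span of those in air, 45 to 55. The actin ratio was 2.94 on SD SO2 replicate 2, against 1.47 to 1.63 on the other SD SO2 arrays. SH rats in air had the sample title numbers 40 to 43, and those in SO2 had 44 and 51 to 53, so their order and exposure cannot be told apart in SH rats; with the title number as a covariate 27 probe sets had the same sign at an unadjusted p under 0.05 in both strains, and 17 opposite signs. With the actin ratio and the 10th percentile as covariates these counts were 65 and 13.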

How the data were processed

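Lung total RNA labelled with biotin was measured on 16 Affymetrix arrays, 1 per sample, in 4 groups of 4 named by the source labels. The deposited values are intensities, linear and 1 for each probe set of an array. GCOS is named per the submitters' processing notes (version and algorithm: not given in the sources used here). Trimmed by 2% at each end, array means were 500.099 to 500.111, and the authors' scaling of intensity was kept. Detection calls were not used here. With 4 arrays in a group, the number of arrays limits precision.

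From 15923 probe sets, 57 controls were removed. The platform annotation gave 1 gene symbol for 12783 of the remaining 15866, several for 312 and none for 2771; only the first were named, and 12748 matched RefSeq with 0 symbols changed. Values were log2(intensity + 16), which understates differences of dim probe sets, and the 30% of lowest mean were left out, leaving 11106 probe sets and 8060 genes. Limma 3.58.1 in R 4.3.3 fitted 1 mean per group (lmFit, eBayes with trend; 12 residual degrees of freedom), with Benjamini-Hochberg adjustment over all 11106. The fit was tested on simulated data. A gene is represented by its brightest probe set unless a second is named. Figures used matplotlib 3.10.9 in Python 3.11.15.

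Named genes were the 15 higher and 15 lower of smallest averaged p with the same sign in both strains, up to 12 in each direction whose air and SO2 arrays were apart in both strains, up to 3 of smallest p from each of 46 lists, and 18 set genes. Of the list members, mainly those with an unadjusted p under 0.05 were given, a limit set after values were seen, as were other list members named for contrast. The members, lists and rules were chosen with earlier results of these data known. Alternatives were offsets, scaling, filters, covariates, models, array weights, the replicate block and each array left out. Arrays with the same replicate number did not deviate together: the correlations of their deviations ran from -0.433 to 0.151.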

Additional observations from a re-analysis of the deposited data

Results flagged for a closer look

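In 464 groups of 4 arrays, over 116 genes, 1 array stood far from the other 3 in 21 groups, by a gap test at the 95% level. Chance passes this test in about 1 of 20 groups, so 21 is no more than chance would give. The values below are therefore listed without a claim that any array is faulty. The 21 fell on 19 genes, and 4 of them on SD SO2 replicate 4, 3 on SD SO2 replicate 2 and 3 on SH air replicate 3.

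Among genes described above, SD SO2 replicate 2 had 827.4 for Dnajb1 on its brighter probe set, against 573.6 to 582.9 on the other SD SO2 arrays. SH SO2 replicate 1 had 539.2 for Klf5, against 704.2 to 740.7. SD SO2 replicate 1 had 365.4 for Samhd1, against 245.3 to 260.7. SD SO2 replicate 4 had 903.6 for Cep20, against 716.2 to 728.5, and 559.1 for Nbl1, against 843.4 to 912.1. The same array had 36624.9 for Scgb1a1, against 24385.8 to 25862.8, and 45111.2 for the surfactant gene Sftpc, against 25005.3 to 27182.1. SD air replicate 3 had 868.9 for Tmem140, against 1081.8 to 1123.6, and SH SO2 replicate 3 had 644.7 for Hmox1, against 1134.1 to 1265.7.

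Other genes with 1 array apart came from the lists. Edn1, endothelin 1, was at 391.1 on SD SO2 replicate 2, against 723 to 767.8, and the proteasome subunit gene Psma3 at 563.6 on the same array, against 630.4 to 638.1. Flt1, a receptor for vascular endothelial growth factor, was at 715.2 on SD SO2 replicate 3, against 381 to 421.8. Myl7 was at 1089.2 on SH air replicate 3, against 816.3 to 856.8, and at 588.5 on SH SO2 replicate 1, against 1010.3 to 1088. SH air replicate 3 also had 1278.8 for the immediate early gene Ier2, against 898.4 to 937.3, and 620.9 for Lipe, hormone-sensitive lipase, against 436.4 to 460.8. Glul, glutamine synthetase, was at 2456.2 on SH SO2 replicate 2, against 3120.3 to 3239.6. SD air replicate 2, the array that went against its strain label, had 136.8 for the cell cycle kinase Cdk1, against 198.6 to 208.2, and 1009.8 for the glutathione transferase Gstm1, against 1406.1 to 1452.5. Stap2, an adaptor of STAT3 signalling, was at 68.3 on SD air replicate 4, against 189.1 to 211.5, and at 110.9 on SD SO2 replicate 3, against 198 to 221.2.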

How the results depend on the processing

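Under all settings run, Srsf5, Slfn4, Samhd1, Hspa1a and both probe sets of Dnajb1 and Dnaja1 kept their direction. So did every other named gene followed across settings except Egfr, Gclc and Hmox1. The settings reuse the arrays by which most of these genes were picked, so this does not set them apart. The count of called probe sets, 0 with the fit reported, was 1 in an additive model (Srsf5) and 4 with array weights (Srsf5, 1 probe set of Dnaja1 and both of Dnajb1), and ran from 0 to 11 with 1 array left out. The 11 came without SD air replicate 4 (Alpl, Dnaja1, Dnajb1 by both probe sets, Htra1, Klf5, Mettl7a, Slfn4, Srsf5, Srsf6 and 1 without a name). Ccn2 and Srsf5 were called without SD SO2 replicate 4, Srsf5 without SH SO2 replicate 3, and 1 probe set without SD air replicate 3. The probe sets of the same sign at an unadjusted p under 0.05 in both strains, 56 as reported, were 27 with the title number as a covariate and 93 with array weights, and 33 (without SD air replicate 1) to 114 (without SD air replicate 4) with 1 array left out. Those with arrays apart in both strains, 15 as reported, were 18 to 53 with 1 array left out, where fewer arrays have to be apart. The cause of the other shifts was not tested.

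The numbers of the replicates did not pair the arrays; with the replicate block 0 probe sets were called, 865 had an unadjusted p under 0.05, the smallest adjusted p was 0.127 and 50 had the same sign in both strains. Values near 0 turned sign: Egfr was at 0.0796 with the title number, 0.0613 with the 10th percentile and 0.0362 with both quality covariates, against -0.02, and ran from -0.0691 to 0.0492 with 1 array left out. Hmox1 was at 0.192 with the title number and 0.0555 with the 10th percentile, against -0.08, and ran from -0.240 to 0.0752 with 1 array left out. Gclc ran from -0.0716 to 0.0383 with 1 array left out, against -0.02. The 4 arrays in a group and the spread between them limit what could be called.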

Other observations

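Some genes with an unadjusted p under 0.05 and the same sign in both strains fell outside the rule for named genes and are given here, chosen after their values were seen; none passed the threshold. Depp1, a gene switched on by forkhead factors and progesterone, averaged 966.1 in SH air and 1797 in SH SO2, and 1162 in SD air and 2059 in SD SO2 (log2 difference 0.79, SE 0.249, limma adjusted p = 0.405). Fibin, a secreted protein, was at -0.85 (-0.81 in SH and -0.90 in SD rats, adjusted p = 0.367). Spn, the leukocyte sialoprotein CD43, was at 0.55 (0.48 and 0.61), and Serpinf1, a secreted inhibitor of vessel growth, at 0.45 (0.50 and 0.40). Mgp, an inhibitor of calcification and one of the bright genes of the lung, was at 0.30 (0.33 and 0.27, adjusted p = 0.308).

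For other genes the probe sets disagreed. Yipf3, a Golgi protein, was at -1.11 in each strain on 1 probe set and at -0.12 on its brighter one. Srsf6, an SR protein, was at 0.44 (0.47 in SH and 0.40 in SD rats) on its dimmer probe set and at 0.03 on its brighter one. Impact, a translational regulator, was at 0.51 on its brightest probe set, and its others were at -0.11 and 0.06.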
